A study of Rattus norvegicus with 6 samples.

Results

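The extracellular matrix and myofibroblast transcripts described here are those of 7 genes, Col1a1, Col1a2, Col3a1, Fn1, Sparc, Lox and Acta2, picked by their Ensembl rat gene identifiers from a count table of 33884 identifiers. All 7 were among the 12756 genes with enough counts for a test. The table came from RNA-seq of CD45+HIS36+ macrophages sorted from the infarcted LV of Sprague Dawley rats 72 h after MI, with 3 WT libraries and 3 libraries from rats homozygous for a Dusp6 mutation (Dusp6-/-, called Dusp6-deficient below). Leukocytes carry CD45 on their surface, and the antibody HIS36 recognizes a surface antigen of rat macrophages. MI was induced in male rats of 8 to 10 weeks by permanent ligation of the left anterior descending coronary artery. DUSP6 is a phosphatase that acts on the kinases ERK1 and ERK2, and the mutation is an inserted adenine in the first exon that brings a premature stop codon. The mutation is present in every cell of the animal, not in macrophages alone. The comparison of the genotypes asks how the macrophage transcriptome of the infarct differs when DUSP6 is missing.

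After an infarct, dead myocardium is replaced by a scar of fibrillar collagen. Cardiac fibroblasts are the main source of that collagen, and those that gain contractile fibers of smooth muscle actin are called myofibroblasts. Macrophages clear debris, signal to fibroblasts and produce some matrix proteins themselves, fibronectin among them.

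Read counts on genes totaled 15806508, 16467086 and 12089585 in WT replicates 1, 2 and 3. In the Dusp6-deficient libraries the totals were 17274938, 14183096 and 14124625. The lowest count of any of the 7 transcripts was 130, for Lox in WT replicate 3, and the highest was 120789, for Fn1 in WT replicate 2. Every value was therefore far above a floor of 3 counts, which corresponds to 0.172 to 0.242 CPM (counts scaled by the TMM-adjusted library size, as for all CPM values here) and covers counting error only. The table does not pair identifiers with gene names, so Dusp6 itself and markers of fibroblasts, smooth muscle cells and macrophages were not analysed here. The sorted cells are thus called macrophages after their label. The libraries were not evenly spaced. On the first principal component of log2 CPM, which held 49.2% of the variance, the WT libraries scored -49.7, -37.4 and -35.9, and Dusp6-deficient replicates 2 and 3 scored 65.0 and 53.5. Dusp6-deficient replicate 1 lay between the groups at 4.48.

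None of the 7 transcripts was called changed, which required both an adjusted p under 0.05 by edgeR's quasi-likelihood test with Benjamini-Hochberg adjustment and a log2 change of more than 1 up or down. The count was 0 higher and 0 lower of 7, against 3.47% of all genes tested that were called higher (442 genes) and 2.16% called lower (275 genes). DESeq2 also called 0 of 7, where it called 5.08% of all genes higher (648 genes) and 5.09% lower (649 genes). At an unadjusted p under 0.05, edgeR gave 2 of the 7, Col3a1 and Acta2, where 30.6% of all genes tested were under that value. DESeq2 gave 3, those genes and Fn1, where 32.3% of all genes were. CPM did not overlap between the genotypes for Col3a1, which was lower in every Dusp6-deficient library, and for Acta2, which was higher in every one. That is 1 of 7 lower and 1 of 7 higher, and 16.3% of all genes tested were lower and 17.8% higher without overlap. The log2 fold change was below 0 for 5 of the 7 (71.4%) and for 48.6% of all genes tested, and its median was -0.22 for the 7 and 0.02 for all genes. Both values for the 7 moved with single libraries. Without WT replicate 1, 3 of 7 (42.9%) were below 0 and the median was 0.05, and without Dusp6-deficient replicate 2 the median was -0.03 with 5 of 7 below 0. Leaving out WT replicate 3 or Dusp6-deficient replicate 3 put 6 of 7 (85.7%) below 0, with medians of -0.46 and -0.53, and without Dusp6-deficient replicate 1 the median was -0.35. The all-gene counts also changed when a single library was left out, a fit with fewer libraries in that genotype. The cause was not tested. Without Dusp6-deficient replicate 1, 1083 genes were called higher and 968 lower, and leaving out each of the other 5 in turn gave 1 to 68 higher and 5 to 80 lower. The labels do not say that the libraries came from separate animals, so the p-values measure the spread between these libraries. In sorted cells measured in bulk, fewer cells that express a gene and less of its RNA per cell cannot be told apart. Fibroblasts or smooth muscle cells carried through the sort could also add these transcripts. Whether the RNA came from macrophages or from such cells was not tested.

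**Figure D1:**
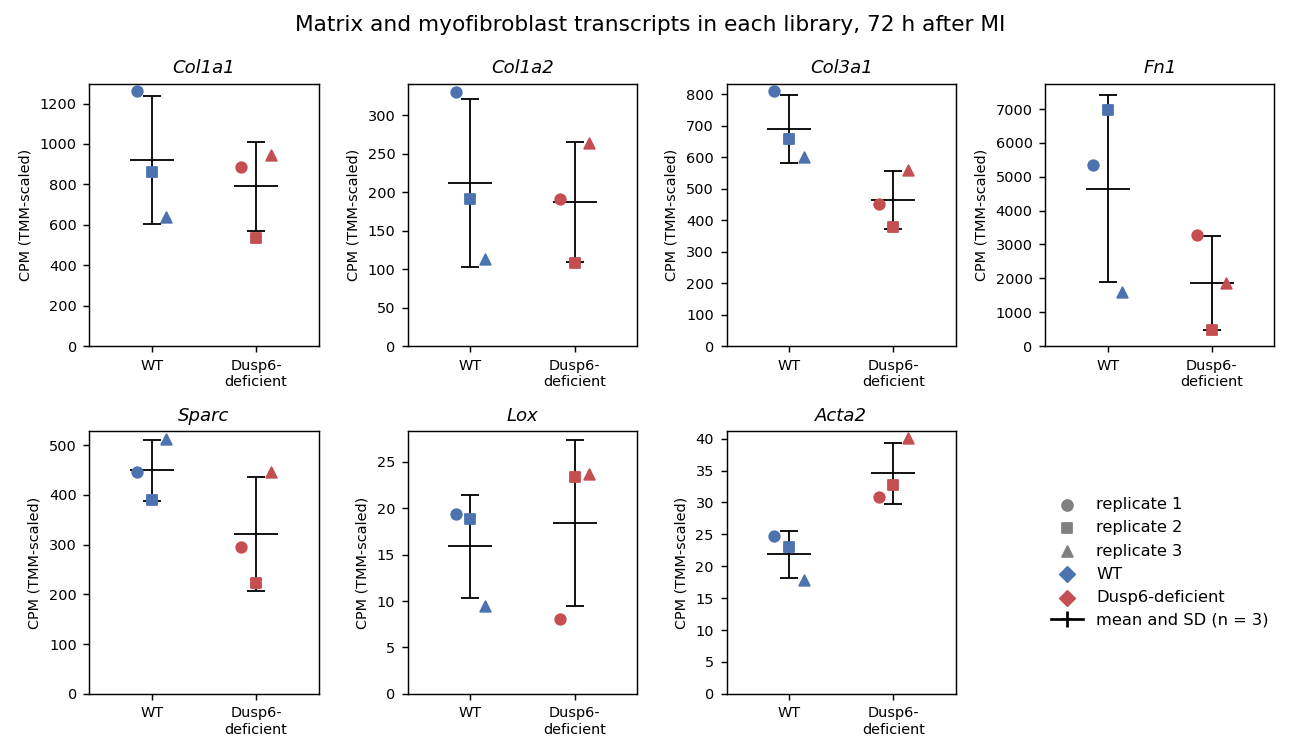
CPM with TMM-scaled library sizes (vertical axes, each starting at 0) of the 7 transcripts in WT (blue) and Dusp6-deficient (red) libraries, with markers for the replicate number and black bars for the mean and SD (n = 3). The points of the genotypes are apart for Col3a1 and Acta2 and interleave for the other 5 genes.

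The fibrillar collagens come first. Col1a1 (ENSRNOG00000003897) encodes the alpha 1 chain of type I collagen, the chief fiber of the scar. It had 1262, 859 and 639 CPM in WT replicates 1, 2 and 3 and 887, 536 and 947 CPM in Dusp6-deficient replicates 1, 2 and 3. The highest library was WT and the lowest Dusp6-deficient, but the other WT libraries lay inside the range of the Dusp6-deficient ones. The means were 919.9 ± 316 and 789.9 ± 222 CPM (SD, n = 3). The log2 fold change was -0.22 (standard error 0.31, 95% interval -0.92 to 0.48), with an adjusted p of 0.657 from edgeR's quasi-likelihood test. It was 0.05 without WT replicate 1, -0.02 without Dusp6-deficient replicate 2 and -0.46 without WT replicate 3, so neither its direction nor its size held when single libraries were left out.

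Col1a2 (ENSRNOG00000011292) encodes the alpha 2 chain, which assembles with alpha 1 chains into the type I molecule. Its values were 329.5, 191 and 114 CPM in WT and 191, 108 and 263 CPM in Dusp6-deficient libraries. The order of the 6 libraries from low to high was nearly that of Col1a1, with WT replicate 1 at the top, Dusp6-deficient replicate 3 next, and Dusp6-deficient replicate 2 and WT replicate 3 at the bottom. Its log2 fold change was -0.18 (standard error 0.42, 95% interval -1.12 to 0.77), with an adjusted p of 0.804 from the same edgeR test. It was 0.27 without WT replicate 1 and 0.09 without Dusp6-deficient replicate 2, and reached -0.53 without Dusp6-deficient replicate 3.

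The pair of type I chains kept a narrow ratio to each other while both varied. Col1a1 had 3.83, 4.49 and 5.62 counts for each Col1a2 count in WT libraries and 4.65, 4.98 and 3.60 in Dusp6-deficient ones, counts that are not corrected for transcript length. The ratio thus spanned a range of 1.56-fold over the 6 libraries, where Col1a1 alone spanned 2.35-fold and Col1a2 alone 3.06-fold. Its means of 4.65 ± 0.904 in WT and 4.41 ± 0.721 in Dusp6-deficient libraries (SD, n = 3) differed by less than the spread between replicates. Across the 6 libraries, the log2 CPM of the chains had a Pearson correlation of 0.974, and of 0.984 once the mean of each genotype was taken out. Among 12755 genes ranked by that correlation with Col1a1, Col1a2 was at place 9, and Col1a1 was at place 5 in the ranking for Col1a2. These correlations describe 6 libraries of 2 genotypes that share their scaling, and they are given with no test.

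Col3a1 (ENSRNOG00000003357) encodes type III collagen, which forms finer fibers together with type I and is laid down early in granulation tissue. It had 812, 657 and 601.5 CPM in WT libraries and 452, 377 and 560 CPM in Dusp6-deficient ones. The lowest WT library was above the highest Dusp6-deficient library, although the gap between them was smaller than the spread within either genotype. The means were 690.2 ± 109 and 463 ± 91.9 CPM (SD, n = 3), and the fitted level was 32.9% lower in Dusp6-deficient libraries. In the edgeR fit, the log2 fold change was -0.58 (standard error 0.22, 95% interval -1.08 to -0.07), lower in 3 of 3 libraries, but the adjusted p of 0.124 from edgeR's quasi-likelihood test missed the threshold. Over the alternatives tried, that adjusted p ran from 0.0709 with DESeq2 to 0.332 without WT replicate 1. Relative to Col1a1, Col3a1 had 64.3%, 76.5% and 94.2% as many counts in WT libraries and 51.0%, 70.3% and 59.1% in Dusp6-deficient ones, and these ratios overlapped.

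Fn1 (ENSRNOG00000014288) encodes fibronectin, a glycoprotein of plasma and of the early wound matrix to which cells attach and on which collagen is assembled. It had 5360, 6978 and 1606 CPM in WT libraries and 3272, 469 and 1849 CPM in Dusp6-deficient ones. WT replicate 3 was below both Dusp6-deficient replicates 1 and 3, and Dusp6-deficient replicate 2 was far below every other library. The highest library was 14.9-fold above the lowest, against 2.15-fold to 3.06-fold for the other 6 transcripts. Within the genotypes the SD of its log2 CPM was 1.29, above that of 98.2% of all genes tested and the highest among the 26 genes whose mean log2 CPM lay within 0.5 of its own. The means were 4648 ± 2756 and 1863 ± 1402 CPM (SD, n = 3). The log2 fold change of -1.32 was the largest of the 7 in size, and so was its standard error of 0.68 (95% interval -2.87 to 0.23, adjusted p of 0.222 from edgeR's quasi-likelihood test). It was -2.04 without Dusp6-deficient replicate 1, -0.87 without Dusp6-deficient replicate 2 and -0.90 without WT replicate 2, and the adjusted p over all alternatives ran from 0.0889 to 0.476. Gene-level counts do not separate the splice forms of fibronectin.

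The summed counts of the transcripts varied with Fn1. The 7 transcripts together took 0.879%, 0.959% and 0.397% of all counts in WT libraries and 0.519%, 0.154% and 0.365% in Dusp6-deficient ones, shares not corrected for transcript length. The widest of their 95% binomial intervals (Wilson) spanned 0.00941 percentage points, so counting error was far smaller than the spread between libraries. The mean share was 0.745 ± 0.304% in WT and 0.346 ± 0.183% in Dusp6-deficient libraries (SD, n = 3), with WT replicate 3 inside the range of the Dusp6-deficient libraries. Fn1 made up 64.9%, 76.5% and 45.9% of these counts in WT and 63.7%, 26.5% and 44.8% in Dusp6-deficient libraries, with Wilson intervals no wider than 1.17 points. Without Fn1, the other 6 transcripts held 0.308%, 0.225% and 0.215% of all counts in WT and 0.188%, 0.114% and 0.202% in Dusp6-deficient libraries. These shares did not overlap, but over TMM-scaled totals they did, at 0.189% to 0.289% in WT and 0.130% to 0.228% in Dusp6-deficient libraries. The TMM factors were 1.05 to 1.14 in WT and 0.874 to 1.01 in Dusp6-deficient libraries, so leaving them out moves every gene toward lower values in Dusp6-deficient libraries, and nothing about these transcripts is read from the separation. The 3 collagen transcripts alone held 0.256%, 0.180% and 0.154% in WT and 0.155%, 0.0891% and 0.157% in Dusp6-deficient libraries, and these values overlapped.

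**Figure D2:**
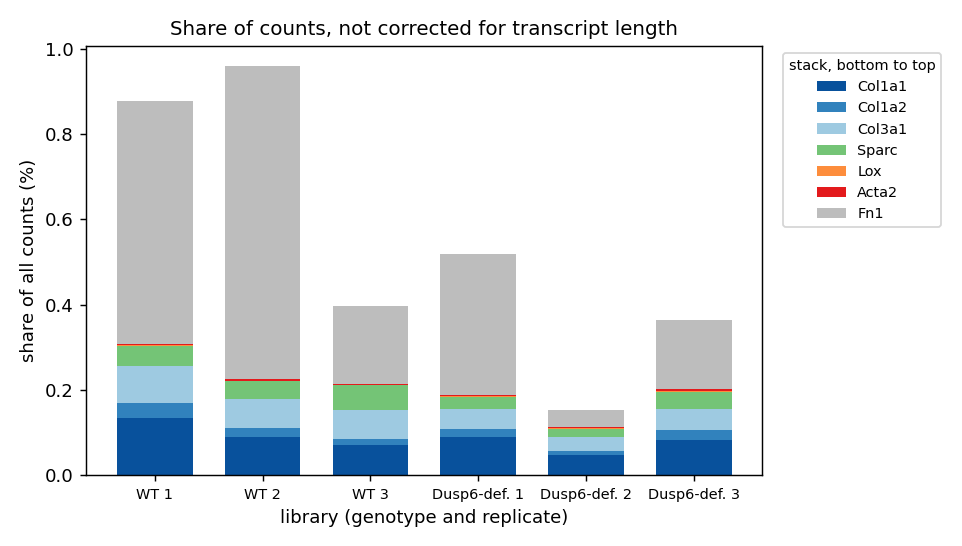
Share of all counts (%, vertical axis from 0) held by each of the 7 transcripts in each library, stacked with the collagens at the bottom and Fn1 at the top. The grey Fn1 part differs most between libraries, from 26.5% of the stack in Dusp6-deficient replicate 2 to 76.5% in WT replicate 2.

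Sparc (ENSRNOG00000012840) encodes a matricellular protein, also called osteonectin, that binds collagen and takes part in its assembly. Its values were 447, 390 and 513 CPM in WT libraries and 296, 223 and 446 CPM in Dusp6-deficient ones. Dusp6-deficient replicates 1 and 2 were below every WT library, and replicate 3 lay among them. The means were 449.9 ± 61.3 and 321.4 ± 114 CPM (SD, n = 3). This gave a log2 fold change of -0.49 (standard error 0.27, 95% interval -1.10 to 0.13), with an adjusted p of 0.253 from edgeR's quasi-likelihood test. It was -0.29 without Dusp6-deficient replicate 2 and -0.82 without Dusp6-deficient replicate 3, and the adjusted p over all alternatives ran from 0.177 to 0.557. As shares of all counts without TMM scaling, the values did not overlap, at 0.0410% to 0.0582% in WT and 0.0194% to 0.0394% in Dusp6-deficient libraries. The same shift of all genes applies there, and without that scaling 23.5% of all genes tested were lower without overlap. Among the 7 genes, the one most like Sparc over the 6 libraries was Col3a1, with a Pearson correlation of 0.824 in log2 CPM (0.668 with the genotype means taken out).

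Lox (ENSRNOG00000014426) encodes lysyl oxidase, the enzyme that starts the cross-linking of collagen and elastin. It had 19.4, 18.9 and 9.47 CPM in WT libraries and 8.08, 23.4 and 23.7 CPM in Dusp6-deficient ones. Each genotype had a single low library, WT replicate 3 and Dusp6-deficient replicate 1, and the other 4 lay between 18.9 and 23.7 CPM. Between the genotypes, the log2 fold change was 0.20 (standard error 0.43, 95% interval -0.78 to 1.18), with an adjusted p of 0.779 from the same edgeR test. The direction turned when a library was left out, to -0.11 without WT replicate 3, -0.07 without Dusp6-deficient replicate 3 and -0.03 without Dusp6-deficient replicate 2. At the lowest count of 130, Poisson counting error alone was 8.77% of the value, small beside these differences. Its Pearson correlation over the 6 libraries was 0.09 with Col1a1, 0.27 with Col1a2 and 0.09 with Col3a1, and 0.12, 0.28 and 0.29 with the genotype means taken out.

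Acta2 (ENSRNOG00000058039) encodes alpha smooth muscle actin, the actin of vascular smooth muscle cells and the usual marker of myofibroblasts. It had 24.8, 23.0 and 17.8 CPM in WT libraries and 30.8, 32.8 and 40.0 CPM in Dusp6-deficient ones, from 244 to 538 counts. Every Dusp6-deficient library was above every WT library. The means were 21.9 ± 3.63 and 34.5 ± 4.85 CPM (SD, n = 3), a difference of 1.58-fold that was larger than the SD of either genotype. The log2 fold change was 0.66 (standard error 0.21, 95% interval 0.17 to 1.15), and the adjusted p of 0.0848 from edgeR's quasi-likelihood test missed the threshold. That adjusted p ran from 0.044 without Dusp6-deficient replicate 1, where the log2 fold change of 0.69 was still under the threshold of 1, to 0.289 without Dusp6-deficient replicate 3. Without TMM scaling, which moves all genes the other way, its share of all counts was also apart, at 0.00202% to 0.00264% in WT and 0.00286% to 0.00354% in Dusp6-deficient libraries, and 11.5% of all genes tested were then higher without overlap. The actin genes have near-identical coding sequences, and how reads that map to several genes were counted is not given in the sources used here, so the Acta2 counts are uncertain to that extent.

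**Figure D3:**
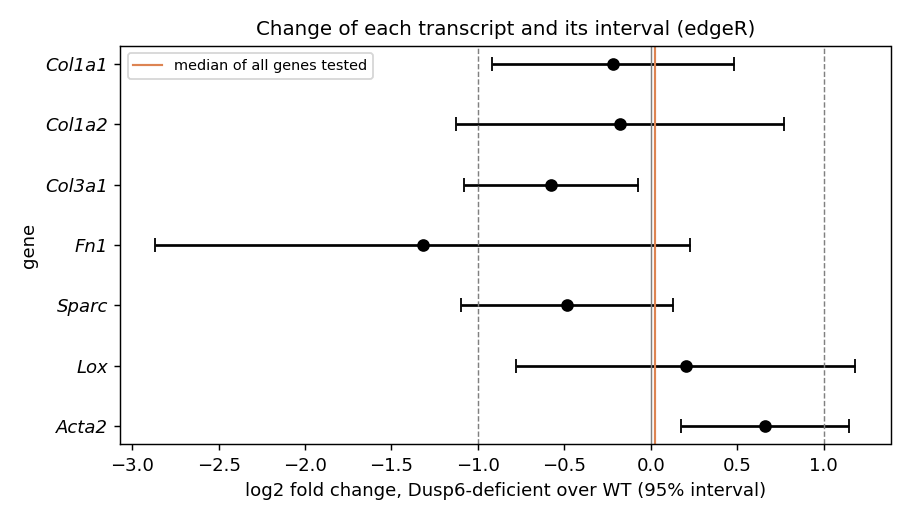
Log2 fold change of each gene in Dusp6-deficient over WT libraries (horizontal axis), with its 95% interval, dashed lines at -1 and 1 and an orange line at the median of all genes tested (0.02). The intervals of Col3a1 (-1.08 to -0.07) and Acta2 (0.17 to 1.15) do not include 0, and that of Fn1 is the widest.

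Acta2 and the collagens were set against each other within each library. Acta2 counts were 1.96%, 2.67% and 2.78% of Col1a1 counts in WT libraries and 3.48%, 6.12% and 4.23% in Dusp6-deficient ones. A ratio of counts within a library does not depend on the scaling between libraries, and this one did not overlap between the genotypes. Acta2 alone was already apart, so the separation in part repeats its own values. The share of all genes whose ratio to Col1a1 is apart is not given here. The ratios of Fn1, Sparc and Lox to Col1a1 overlapped. For Acta2 to Col1a1, the means were 2.47 ± 0.446% in WT and 4.61 ± 1.36% in Dusp6-deficient libraries (SD, n = 3). Relative to Col3a1, a ratio chosen after the values of both genes were seen, Acta2 had 3.05%, 3.50% and 2.96% as many counts in WT and 6.82%, 8.69% and 7.15% in Dusp6-deficient libraries. Because both genes were apart between the genotypes in opposite directions, that separation repeats their own values and is no further evidence. Within the genotypes, Acta2 varied in part along with the collagens. In WT, the order of the libraries was the same for Acta2 and the 3 collagens, with replicate 1 highest and replicate 3 lowest. Dusp6-deficient replicate 3 was the highest of its genotype for all 4 genes. Dusp6-deficient replicate 2 was the lowest of its genotype for the 3 collagens but was above replicate 1 for Acta2, at 32.8 against 30.8 CPM. With the mean of each genotype taken out, the Pearson correlation of Acta2 in log2 CPM over the 6 libraries was 0.70 with Col1a1, 0.81 with Col1a2, 0.79 with Col3a1, 0.78 with Lox, 0.45 with Fn1 and 0.25 with Sparc. Without that step it was 0.10, 0.29, -0.49, 0.46, -0.32 and -0.48, values that hold the offset between the genotypes as well. By these last values, 46.6%, 39.0% and 69.7% of the genes ranked were at least as like Acta2 as Col1a1, Col1a2 and Col3a1. That share is not given here for the values with the genotype means taken out, so how unusual those are is not known. These are descriptions of 6 libraries, with no test.

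**Figure D4:**
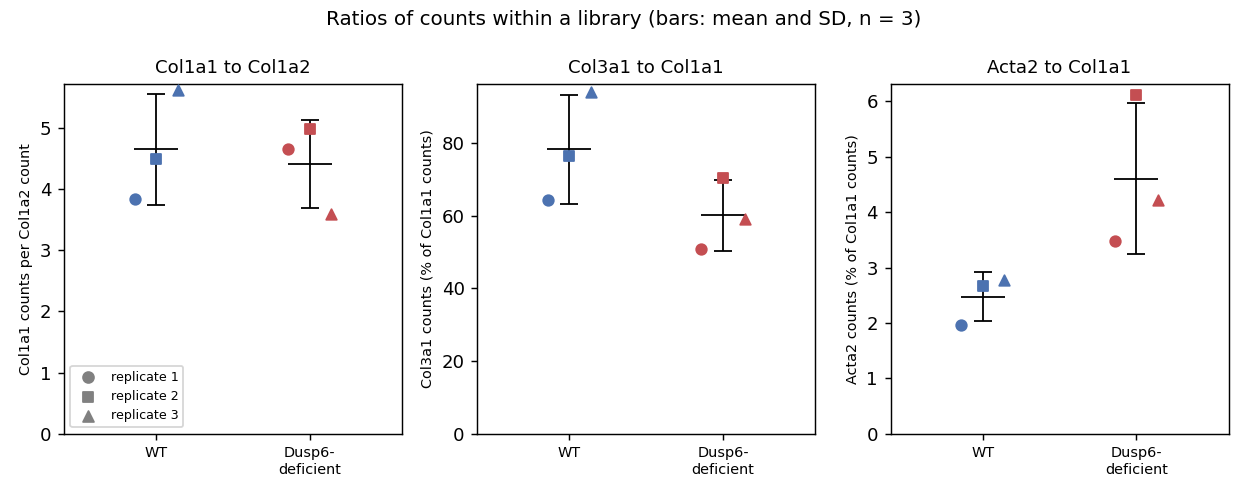
Ratios of counts within each library for Col1a1 to Col1a2 (counts per count), Col3a1 to Col1a1 and Acta2 to Col1a1 (%), with a point per library and bars for the mean and SD (n = 3). Only the ratio of Acta2 to Col1a1, among the 3 plotted, is apart between the genotypes, at 1.96% to 2.78% in WT and 3.48% to 6.12% in Dusp6-deficient libraries.

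Promoter sequences of 3 of the 7 genes, Acta2, Col1a2 and Sparc, were matched by symbol in a RefSeq table of the GRCr8 build. Those of Acta2 and Col1a2 are shown for the transcript that was higher in every Dusp6-deficient library and for the type I collagen chain that varied with its partner. In the sequence of Acta2 (chr1:241172504-241172653, minus strand, the 150 bases before the start of the gene), capitals mark each CArG box with 1 inner G or C. In that of Col1a2 (chr4:33518307-33518416, plus strand, from 250 to 141 bases before the start), capitals mark CCAAT on the opposite strand, read here as ATTGG, and TATAAA on the strand of the gene.
Acta2: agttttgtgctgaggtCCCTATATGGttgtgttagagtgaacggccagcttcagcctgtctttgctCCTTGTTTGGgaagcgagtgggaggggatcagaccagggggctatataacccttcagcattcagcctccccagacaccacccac
Col1a2: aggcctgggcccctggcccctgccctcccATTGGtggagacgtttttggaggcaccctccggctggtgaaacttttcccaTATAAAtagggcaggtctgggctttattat

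The 250 bases before each start were searched on both strands. The CArG box, the motif bound by serum response factor in many smooth muscle genes, is CC, then 6 bases of A or T, then GG. The exact form was in 0 of the 3 promoters and in 1.5% of the 33469 promoters of that table. A form with 1 of the 6 inner bases G or C, chosen after the Acta2 sequence was seen, was at 134 to 125 and at 84 to 75 bases before the start of Acta2, in neither of the other promoters searched, and in 6.84% of all promoters. CCAAT, in 34% of all promoters, and TATAAA, in 12.9%, were in that of Col1a2 only among the 3. CAGAC, the letters of a SMAD element, was in 3 of 3 and in 42.9% of all promoters. TGANTCA, the AP-1 site, in 6.34% of all promoters, and GGGCGG, the GC box, in 30.5%, were in 0 of 3. A match describes letters in the window and is not a measured site.

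Single libraries stood out across the genes. Dusp6-deficient replicate 2 was the lowest library for 5 of the 7 transcripts, Col1a1, Col1a2, Col3a1, Fn1 and Sparc, and above every WT library for the other 2, Lox and Acta2. WT replicate 1 was the highest library for the 3 collagens. Averaged over the 7 genes, the log2 CPM minus the WT mean was -0.27, -0.75 and 0.10 in Dusp6-deficient replicates 1, 2 and 3. The WT libraries themselves had averages of 0.36, 0.13 and -0.49, so WT replicate 3 was lower than Dusp6-deficient replicates 1 and 3. The place of a library on the first principal component did not give its place for these transcripts. Dusp6-deficient replicates 2 and 3, close to each other on the component at 65.0 and 53.5, had the lowest and the highest of the Dusp6-deficient averages.

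**Figure D5:**
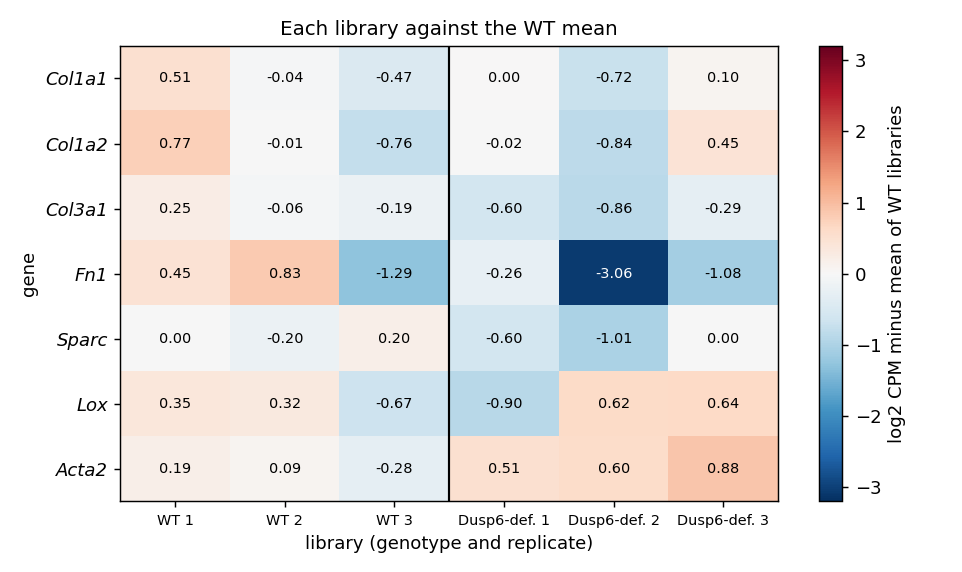
Log2 CPM of each transcript in each library minus the mean of the WT libraries (color and printed value), with the WT libraries left of the black line. Dusp6-deficient replicate 2 has the lowest value of the plot, -3.06 for Fn1, and Acta2 is at 0.51, 0.60 and 0.88 in the Dusp6-deficient libraries.

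Genes outside the 7 were ranked by the Pearson correlation over the 6 libraries between their log2 CPM and the mean log2 CPM of the 7. Among the 8077 genes averaging a log2 CPM of 3 or more, 40 had a correlation of at least 0.9 and 6 of at least 0.95. The first was ENSRNOG00000046699 with 0.97, whose log2 fold change of -2.08 had an adjusted p of 0.145 from edgeR's quasi-likelihood test. The second was ENSRNOG00000020451 with 0.96, a log2 fold change of -0.18 and an adjusted p of 0.596 from that test. With 6 libraries and this many genes such correlations are a description only, and the names of these genes are not paired with their identifiers in the table.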

How the data were processed

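RNA-seq libraries of CD45+HIS36+ macrophages, sorted after Liberase digestion of the infarcted LV, were prepared from total RNA and sequenced. Per the submitters' processing notes, reads were trimmed with Trim Galore, aligned to the rat genome (rn6) with HISAT2 and counted with featureCounts 1.5.0-p3. The authors deposited raw counts per gene. The annotation release, the strand setting and how multi-mapping reads were counted are not given in the sources used here.

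All 6 columns were matched to samples by name. The software was edgeR 4.0.16, DESeq2 1.42.0 and limma 3.58.1 under R 4.3.3, with Python 3.11.15 for sequences and matplotlib 3.10.9 for plots. Genes were kept by filterByExpr, scaled by TMM (factors 0.874 to 1.14) and tested with edgeR's quasi-likelihood test with genotype as the only term, and p-values were adjusted over all 12756 genes by the Benjamini-Hochberg method. The scripts were tested on simulated data with 200 changed genes among 12756, each with a log2 change of 2 up or down. There edgeR recovered 75% of the changed genes with 5.04% false calls, and DESeq2 recovered 84.5% with 15.3% false calls. These rates are for changes of that size, which no member reached, and do not give the chance of calling a member. CPM uses TMM-scaled totals, and log2 CPM has a prior count of 2. Standard errors were derived from the F statistic. Chi-square statistics per gene between libraries of a genotype were 27.6 to 154, so no library repeated another. Alternatives were DESeq2, RLE and upper-quartile normalization, other filters, thinning to the smallest total, a replicate block, no fold threshold and each library left out.

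The members and lists were chosen with earlier results of these data known. All 7 members are named, and the rule for like genes took the 10 with the highest correlation that had a symbol. The RefSeq gene table used for names (GRCr8) gave an Ensembl identifier for 0 genes, so the 33884 identifiers could not be looked up, that condition was dropped, the number was reduced to 2, and lists of other matrix genes, cell type markers and Dusp6 were not analysed here. The symbols of the 7 members came with the rule that picked them.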

Additional observations from a re-analysis of the deposited data

How the results depend on the processing

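Of 91 comparisons of a member's log2 fold change under an alternative setting, 85 kept their direction and stayed uncalled and 6 changed direction, all with a library left out. Among the 85, Fn1 came under the fold threshold at -0.90 without WT replicate 2 and -0.87 without Dusp6-deficient replicate 2, and Acta2 came under the adjusted p threshold at 0.044 (edgeR, range over alternatives 0.044 to 0.289) without Dusp6-deficient replicate 1. Without WT replicate 1, Col1a1 was at 0.0512 (range over libraries left out -0.46 to 0.0512) and Col1a2 at 0.27. Col1a2 was at 0.09 without Dusp6-deficient replicate 2 (range -0.53 to 0.27). Lox was at -0.11, -0.03 and -0.07 without WT replicate 3 and Dusp6-deficient replicates 2 and 3 (range -0.11 to 0.51). The cause was not tested. Under every alternative run, edgeR or DESeq2 called 0 of the 7 members in either direction. Among all genes, 649 were called lower with DESeq2 and 422 with no filter on low counts, against 275, and 708 were called higher with no fold change threshold, against 442. With a library left out, 1 to 1083 genes were called higher and 5 to 968 lower. Upper-quartile normalization gave 348 higher and 345 lower.

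No pairing of the samples by replicate number was seen. Deviations from the group means of same-numbered libraries had correlations of 0.106, -0.118 and -0.139, and only replicate 1 correlated best with its own number. With 3 libraries a genotype, these values cannot show whether same-numbered libraries shared a batch. With a replicate block, 298 genes were called higher and 188 lower, and 0 members.

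The mean share of counts on the 7 transcripts was 0.696% in WT and 0.368% in Dusp6-deficient libraries over TMM-scaled totals. With 3 libraries a genotype, the 95% intervals of 6 of the 7 members, all but Col1a1, reach past the fold threshold.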
